A study of Mus musculus with 22 samples.

Results

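The genes described here are 9 genes of mitochondrial and caspase-8 apoptosis, taken by name from a table of 21995 genes: Bax, Bak1, Bcl2, Bcl2l1, Mcl1, Bcl2l11, Bid, Bbc3 and Casp8. All 9 were found in the table and all 9 had enough counts to be tested. RNA-seq was performed on whole spinal cords of 22 C57BL/6 mice, 1 library per mouse. To examine aging, 8 young wild-type males at 3–4 months were compared with 8 old wild-type males at 18–24 months, all prepared with the Roche KAPA HyperPrep kit. To examine amyotrophic lateral sclerosis (ALS), 3 symptomatic mice carrying many copies of a human SOD1 G93A transgene were compared with 3 wild-type controls, both groups at 5–6 months by the sample labels, with 2 females and 1 male each, prepared with the Illumina TruSeq kit. The SOD1 G93A transgene is expressed throughout the body, so these mice model an inherited form of the disease and not a change limited to motor neurons. Since kit and experiment coincide, each comparison was made within its own experiment and no level was compared between them.

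The BCL2 family decides whether the outer mitochondrial membrane stays intact. Bax and Bak1 encode the effector proteins that form pores in that membrane, and Bcl2, Bcl2l1 (BCL-XL) and Mcl1 encode guards that bind and restrain them. Bcl2l11 (BIM), Bid and Bbc3 (PUMA) encode BH3-only proteins, which sense stress and either block the guards or engage the effectors directly, while Casp8 encodes the initiator caspase of death receptors, which can cleave BID and so join the receptor pathway to mitochondria. In the nervous system the family is best known for setting the survival of neurons during development and after injury, and it is also active in glia and immune cells.

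Mcl1, Bbc3 and Casp8 were the members whose change in SOD1 G93A mice went beyond a log2 fold change of 1, and their promoter windows are shown for that reason. Each is the 250 bases before the RefSeq start of the gene on the GRCm38 build, written 5′ to 3′ on the strand of the gene, with capitals marking a GC box (GGGCGG on either strand, the core element bound by SP1 and related factors). The windows are chr3:95658471-95658720 for Mcl1, chr7:16309333-16309582 for Bbc3, which is the first of 3 RefSeq windows of that gene, and chr1:58802252-58802501 for Casp8, all on the plus strand. In the annotation used for gene positions (GENCODE M21), Bbc3 starts at 16308393 and Casp8 at 58795374. Both of their windows thus lie inside the annotated gene, and only that of Mcl1 lies before it.
Mcl1: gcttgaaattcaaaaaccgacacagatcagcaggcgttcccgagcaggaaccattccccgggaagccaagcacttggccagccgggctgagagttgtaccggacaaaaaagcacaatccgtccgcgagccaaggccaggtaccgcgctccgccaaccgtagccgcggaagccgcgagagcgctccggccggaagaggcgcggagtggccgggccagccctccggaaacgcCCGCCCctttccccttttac
Bbc3: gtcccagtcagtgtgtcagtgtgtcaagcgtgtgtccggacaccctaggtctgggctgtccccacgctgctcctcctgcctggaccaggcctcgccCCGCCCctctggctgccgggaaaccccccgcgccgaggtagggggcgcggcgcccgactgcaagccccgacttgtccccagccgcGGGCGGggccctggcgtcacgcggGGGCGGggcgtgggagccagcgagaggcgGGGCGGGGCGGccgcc
Casp8: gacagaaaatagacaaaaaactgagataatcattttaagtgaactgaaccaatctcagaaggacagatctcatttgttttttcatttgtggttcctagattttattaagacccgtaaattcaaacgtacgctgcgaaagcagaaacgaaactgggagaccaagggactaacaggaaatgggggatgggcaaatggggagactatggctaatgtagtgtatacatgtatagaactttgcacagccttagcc
The 3 windows differ in base composition, with 64.4% G and C in Mcl1, 76.4% in Bbc3 and 39.6% in Casp8, against a median of 52.4% over all RefSeq promoter windows. The Mcl1 window holds 1 GC box, the Bbc3 window 5 and the Casp8 window 0. The 9 members have 14 windows in all, of which 9 windows of 6 members hold a GC box, while 32.7% of 32851 windows of all genes do. An ETS core (GGAAGT) was found in 2 of the 14 windows against 19.7% of all windows, the E-box CACGTG in 2 against 6.02%, a CCAAT box in 4 against 33.8%, and TATAAA in 0 against 12.4%, all searched on both strands and with none of these words contained in another. A match only says that these letters occur in the window.

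Old mice had more RNA of 6 of the 9 members than young mice. The 6 were Bak1, Bcl2l1, Mcl1, Bid, Bbc3 and Casp8, and 13.5% of the 13647 genes tested in aging were higher by the same call, an adjusted p under 0.05 in edgeR's quasi-likelihood test. The changes were small, with a median log2 fold change of 0.33 over the 9 members and none beyond 1, a size that 2.18% of all tested genes reached in the higher direction. SOD1 G93A mice had more RNA of 8 of the 9 members than their controls, all except Bid, where 18.4% of the 14386 genes tested were higher. The median log2 fold change of the members was 0.74 in ALS, and Mcl1, Bbc3 and Casp8 went beyond 1, as did 8.5% of all tested genes. The median over all tested genes was -0.0027 in aging and 0.0031 in ALS. No member was lower in either comparison by edgeR or by DESeq2, where 12.9% of all tested genes were lower in aging and 15.5% in ALS, and all 18 fitted log2 fold changes were above 0, so the count of lower members is 0 at any p. Among the members, both effectors and all 3 guards were higher in ALS, and 1 effector and 2 guards were in aging.

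**Figure D1:**
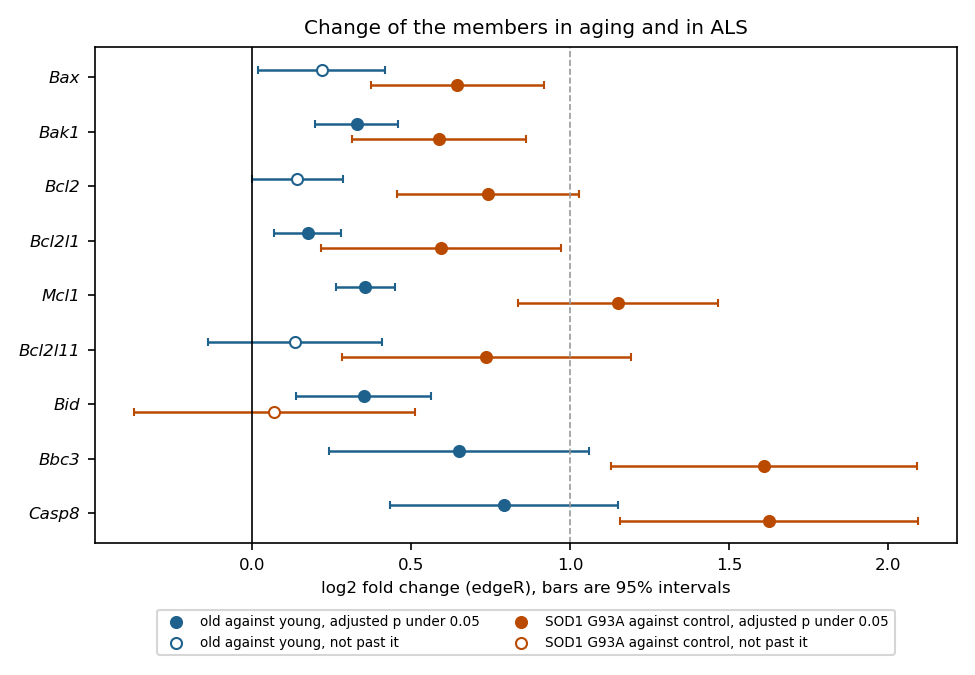
Log2 fold change of each member (edgeR, x axis), with bars for 95% intervals from the standard error, for old against young mice (blue, 8 against 8) and SOD1 G93A against control mice (orange, 3 against 3). Filled points passed an adjusted p under 0.05, and the dashed line marks a log2 fold change of 1. The ALS point lies right of the aging point for every member except Bid. The ALS intervals are normal ones and are narrower than the test implies with 3 mice per group.

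Of the effectors, Bak1 (ENSMUSG00000057789, chromosome 17, 27019810 to 27029009, GRCm38) was higher in old mice, whereas Bax (ENSMUSG00000003873, chromosome 7, 45461697 to 45466898) did not pass the test in aging. CPM, the counts of a gene scaled to its library size by TMM, of Bak1 ran from 18.2 over a median of 20.0 to 22.6 in young mice and from 22.5 over 25.6 to 28.5 in old mice. Only 1 old mouse lay within the young range. The log2 fold change of Bak1 in aging was 0.33 ± 0.07 (SE, adjusted p = 0.000792, edgeR). For Bax, CPM ran from 14 over 16.4 to 21.9 in young mice and from 15.1 over 18.4 to 23.6 in old mice, so that the groups overlapped over most of their range. Its log2 fold change was 0.22 ± 0.10 with an adjusted p of 0.121. That call turned on single libraries, since the adjusted p was 0.0358 without the young library d149019 and 0.0464 without the old library d149034.

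In the ALS experiment both effectors were higher. Bax stood at 20.9, 17.8 and 20.8 CPM in the control mice and at 33.6, 25.4 and 34.0 CPM in the SOD1 G93A mice, and Bak1 at 14.5, 15.4 and 14.9 against 24.5, 18.3 and 24.4 CPM. Neither gene overlapped between the groups, and the same SOD1 G93A library, d4437, was the lowest for both. The log2 fold change was 0.64 ± 0.14 for Bax (adjusted p = 0.0088, edgeR) and 0.59 ± 0.14 for Bak1 (adjusted p = 0.0131). Without the SOD1 G93A library d4443 the Bak1 call was lost, at an adjusted p of 0.0655. Both genes share exon sequence with a neighbour, Bax with 192 bases of Gm45808 on its own strand and Bak1 with 437 bases of Ggnbp1 on the opposite strand. Gm45808 was at most 0.444 CPM in the mean of any group, and Ggnbp1 gave log2 fold changes of -0.03 in aging and 0.42 in ALS with adjusted p-values of 0.884 and 0.0683. Whether the counting used strand is not given in the sources used here. The third effector-like gene, Bok, gave 0.08 ± 0.21 in aging and -0.02 ± 0.17 in ALS and passed in neither.

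Among the guards, Mcl1 (ENSMUSG00000038612, chromosome 3, 95658788 to 95663176), a short-lived protein that binds BAK and BIM, was the clearest. Its CPM ran from 75.2 over 79.7 to 89.7 in young mice and from 94.4 over 101 to 113 in old mice. Every old mouse lay above every young mouse, which 3.66% of all tested genes showed in this direction, and no other member did. Mcl1 thus had a log2 fold change of 0.35 ± 0.05, or 1.28-fold (adjusted p = 5.7e-06, edgeR). In ALS, Mcl1 stood at 81.1, 84.4 and 95.5 CPM in controls and at 221, 144 and 214 CPM in SOD1 G93A mice. All SOD1 G93A libraries were well above the controls, with the lowest again d4437. This was a log2 fold change of 1.15 ± 0.16, or 2.22-fold (adjusted p = 0.00139), and the adjusted p stayed at or below 0.012 with any 1 of the 6 libraries left out.

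Bcl2l1 (ENSMUSG00000007659, chromosome 2, 152780668 to 152831728), whose protein BCL-XL guards mature neurons and glia, moved less. In aging its CPM ran from 94.0 over 97.5 to 117 in young mice and from 95.9 over 118 to 122 in old mice. The groups overlapped, with 5 of 8 old mice above all young mice. Its log2 fold change was 0.17 ± 0.05 (adjusted p = 0.0198, edgeR), and in 1 fit of all 22 libraries the adjusted p was 0.14. In ALS the controls stood at 81.2, 97.1 and 108 CPM and the SOD1 G93A mice at 186, 106 and 140 CPM. Library d4437 lay within the control range, so the groups overlapped. Its ALS change of 0.59 ± 0.19 on the log2 scale passed narrowly (adjusted p = 0.0415), and the call was lost without any of d4438, d4441, d4444, d4435 or d4443, at adjusted p-values from 0.0671 to 0.143.

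Bcl2 (ENSMUSG00000057329, chromosome 1, 106538178 to 106714274), the founding guard of the family, was not called in aging but rose in ALS. Its CPM ran from 24.7 over 31.4 to 35.3 in young mice and from 30.4 over 34.5 to 36.8 in old mice. Its log2 fold change of 0.14 ± 0.07 had an adjusted p of 0.158. In ALS it stood at 27.4, 35.6 and 33.5 CPM in controls and at 62.3, 44.2 and 54.9 CPM in SOD1 G93A mice. The groups did not overlap, and the log2 fold change was 0.74 ± 0.15 (adjusted p = 0.0063, edgeR). In ALS, 7 of the 9 members had no overlap between groups in the higher direction, all except Bcl2l1 and Bid, against 25.7% of all tested genes.

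**Figure D2:**
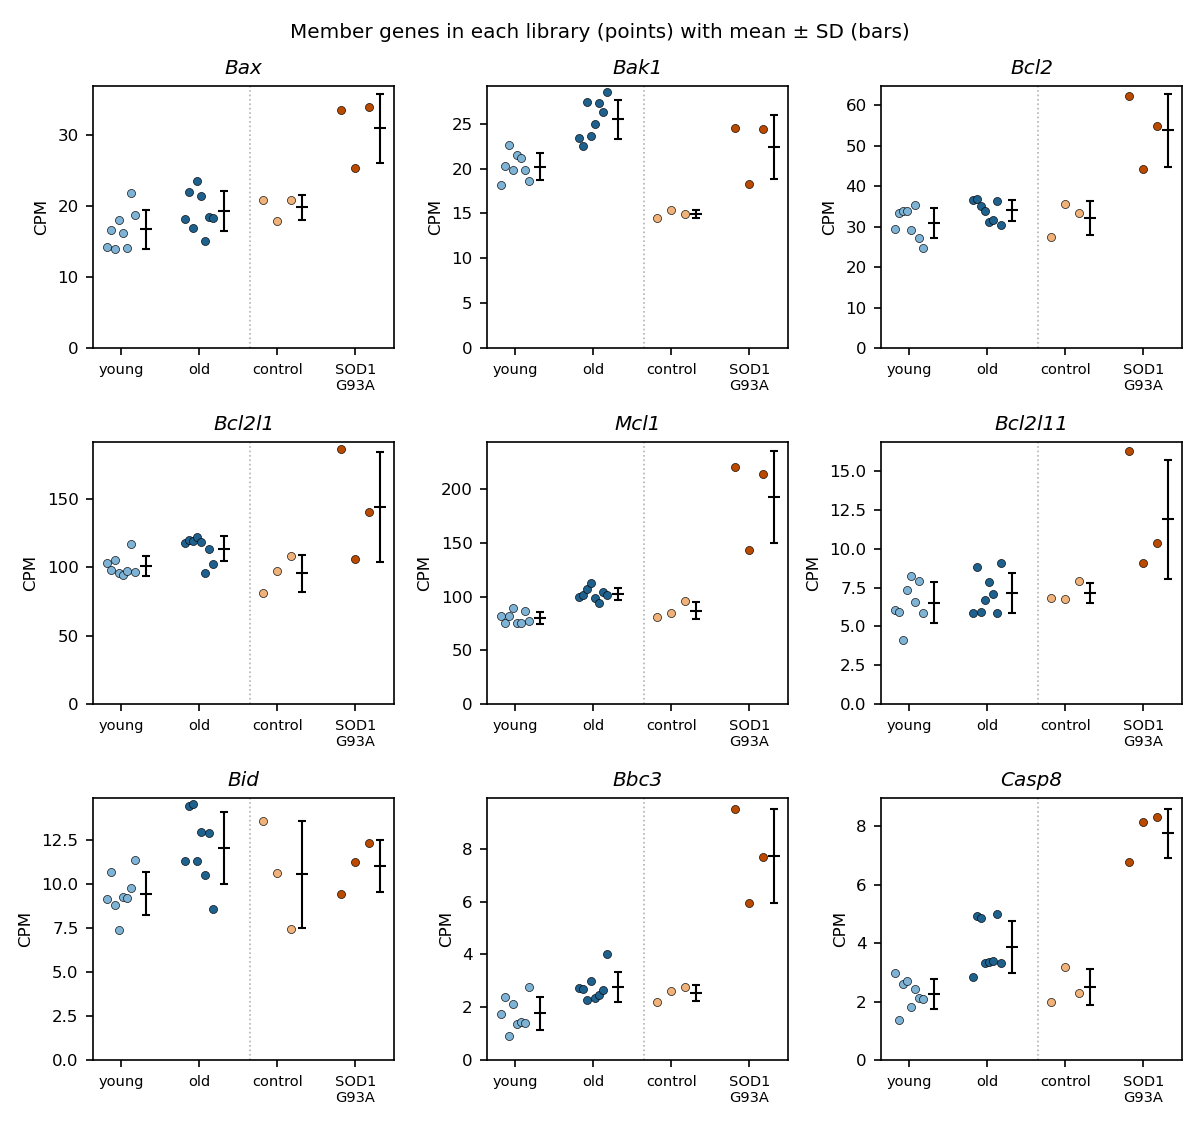
CPM of each member in each of the 22 libraries (points) with the group mean ± SD (bars), each gene on its own linear axis from 0. The dotted line separates the aging experiment (8 young, 8 old) from the ALS experiment (3 control, 3 SOD1 G93A), which used different library kits. For Mcl1 the old mice lie above all young mice, and for Bid the control and SOD1 G93A mice overlap.

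The BH3-only members differed in their calls, but were not tested against each other. Bbc3 (ENSMUSG00000002083, chromosome 7, 16308393 to 16318205), a target of p53 that binds all of the guards, was higher in both comparisons. It was expressed at low levels, with 7 to 21 counts in a young and 16 to 28 counts in an old library. Its CPM ran from 0.908 over 1.58 to 2.75 in young mice and from 2.29 over 2.67 to 4.02 in old mice. Most old mice lay inside the young range and 2 lay above it. The log2 fold change in aging was 0.65 ± 0.21 (adjusted p = 0.0226, edgeR). It was lost at 0.0501 without the young library d149012 and at 0.0509 without the old library d149036, and on the log2(FPKM + 1) scale of the authors the change was 0.12 with an adjusted p of 0.615 (limma). The counts behind FPKM are divided by a transcript length estimated in each library, and that implied length of Bbc3 varied 2.02-fold over the libraries. The median of the 7899 genes with at least 100 counts in every library was 1.21-fold, but Bbc3 had far fewer counts than those genes. In ALS, Bbc3 stood at 2.18, 2.61 and 2.77 CPM in controls and at 9.49, 5.94 and 7.70 CPM in SOD1 G93A mice. Every SOD1 G93A value was well clear of the controls, and the log2 fold change was 1.61 ± 0.25, or 3.05-fold (adjusted p = 0.00212).

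Bid (ENSMUSG00000004446, chromosome 6, 120891930 to 120916853), the caspase-8 substrate, was called in aging and not in ALS. The difference between its changes in aging and in ALS was not called (adjusted p = 0.334, edgeR). In young mice its CPM ran from 7.37 over 9.24 to 11.4 and in old mice from 8.57 over 12.1 to 14.5. The groups overlapped, with 4 of 8 old mice above all young mice, and the log2 fold change was 0.35 ± 0.11 (adjusted p = 0.0188, edgeR). In ALS the controls stood at 13.6, 10.6 and 7.45 CPM and the SOD1 G93A mice at 9.41, 11.3 and 12.4 CPM. The controls alone spanned the whole SOD1 G93A range, and the log2 fold change was 0.07 with a 95% interval from -0.37 to 0.51 (adjusted p = 0.839). It changed sign to -0.14 without the control library d4444 and to -0.02 without the SOD1 G93A library d4443. Bid overlaps 628 exonic bases of Bcl2l13 on the opposite strand, a gene at 41.1 to 50.6 CPM in the group means that passed in neither comparison.

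Bcl2l11 (ENSMUSG00000027381, chromosome 2, 128126038 to 128162547), which encodes BIM, was not called in aging. Its CPM ran from 4.15 over 6.32 to 8.25 in young mice and from 5.83 over 6.91 to 9.09 in old mice, with a log2 fold change of 0.13 ± 0.14 and an adjusted p of 0.52. In ALS the controls stood at 6.83, 6.74 and 7.91 CPM and the SOD1 G93A mice at 16.3, 9.06 and 10.4 CPM. The groups did not overlap, but library d4435 lay far above the other SOD1 G93A libraries. The log2 fold change was 0.74 ± 0.23 (adjusted p = 0.0375, edgeR), and the call was lost without any of d4438, d4441, d4444, d4435 or d4443, at adjusted p-values from 0.0684 to 0.13. On the log2(FPKM + 1) scale the ALS change of Bcl2l11 was 0.46 with an adjusted p of 0.0689 (limma).

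Casp8 (ENSMUSG00000026029, chromosome 1, 58795374 to 58847503), the initiator caspase, showed the highest log2 fold change of the 9 members in aging and, with Bbc3, in ALS. Counts were low, from 12 to 24 in a young and from 19 to 42 in an old library. In young mice its CPM ran from 1.37 over 2.27 to 2.97 and in old mice from 2.86 over 3.37 to 5.00. All but 1 old mouse lay above all young mice, and the log2 fold change was 0.79 ± 0.18, or 1.73-fold (adjusted p = 0.00227, edgeR). In ALS it stood at 1.99, 3.20 and 2.31 CPM in controls and at 6.78, 8.16 and 8.33 CPM in SOD1 G93A mice. The groups were far apart, and the log2 fold change was 1.62 ± 0.24, or 3.08-fold (adjusted p = 0.00178). Casp8 and Bid were the members for which d4435, and not d4437, was the lowest SOD1 G93A library. All values given here are RNA levels and carry no measure of caspase activity or cell death.

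Whether a member changed more in ALS than in aging was tested as a difference of the fold changes in 1 edgeR fit of all 22 libraries. The difference was called for 3 of the 9 members, Bcl2, Mcl1 and Bbc3, where 11.6% of 14502 genes tested were called with the same sign. It was 0.57 ± 0.15 on the log2 scale for Bcl2 (adjusted p = 0.00572), 0.77 ± 0.13 for Mcl1 (adjusted p = 0.000121) and 0.93 ± 0.34 for Bbc3 (adjusted p = 0.0422). The Bbc3 difference was lost on leaving out any 1 of d149009, d159033, d149020, d149025, d149032, d4438, d4435 or d4443. Its highest adjusted p, 0.165, came without the SOD1 G93A library d4435. In each of these fits 2 members were called, Bcl2 and Mcl1, and 2 were called with no filter on low counts. Casp8 missed the threshold with a difference of 0.80 ± 0.31 (adjusted p = 0.0551). For Bax, Bak1, Bcl2l1 and Bcl2l11 the differences lay between 0.23 and 0.58 with adjusted p-values from 0.0662 to 0.214. Bid had the only negative difference, -0.31 with a 95% interval from -0.75 to 0.13. No member was called with the opposite sign by edgeR or DESeq2, against 14.2% of all tested genes, and the unadjusted p of Bid was 0.181. The number of called members was 5 without the old library d149028 and 7 without the SOD1 G93A library d4437. Library kit, age range and sex makeup differ between the experiments along with the condition, and their part in these differences cannot be told apart from it.

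Levels can be set against each other between genes only per transcript length, for which the authors' FPKM values were used. In young mice the order from the top was Bcl2l1 with a median of 43.4 FPKM, Mcl1 with 21.9, Bax with 18.7, Bak1 with 14.5, Bcl2 with 4.48, Bid with 4.09, Bcl2l11 with 1.55, Bbc3 with 1.36 and Casp8 with 1.14. Neighbouring ranges over the 8 libraries did not overlap between Bcl2l1 and Mcl1, Bak1 and Bcl2, or Bid and Bcl2l11, and overlapped for all other neighbours. Bcl2l1 thus stood alone at the top, followed by Mcl1 and the effectors, then by Bcl2 and Bid, and last by Bcl2l11, Bbc3 and Casp8. In SOD1 G93A mice Bbc3 stood 6th with a median of 5.47 FPKM, in a range that overlapped those of Bcl2 and Bid, and Bcl2l11 was last with 2.55 FPKM. The top of the order depends on how length is counted, since with counts per kilobase of all annotated exons Mcl1 had a median of 23.3 and Bcl2l1 of 21.3 in young mice, with overlapping ranges.

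**Figure D3:**
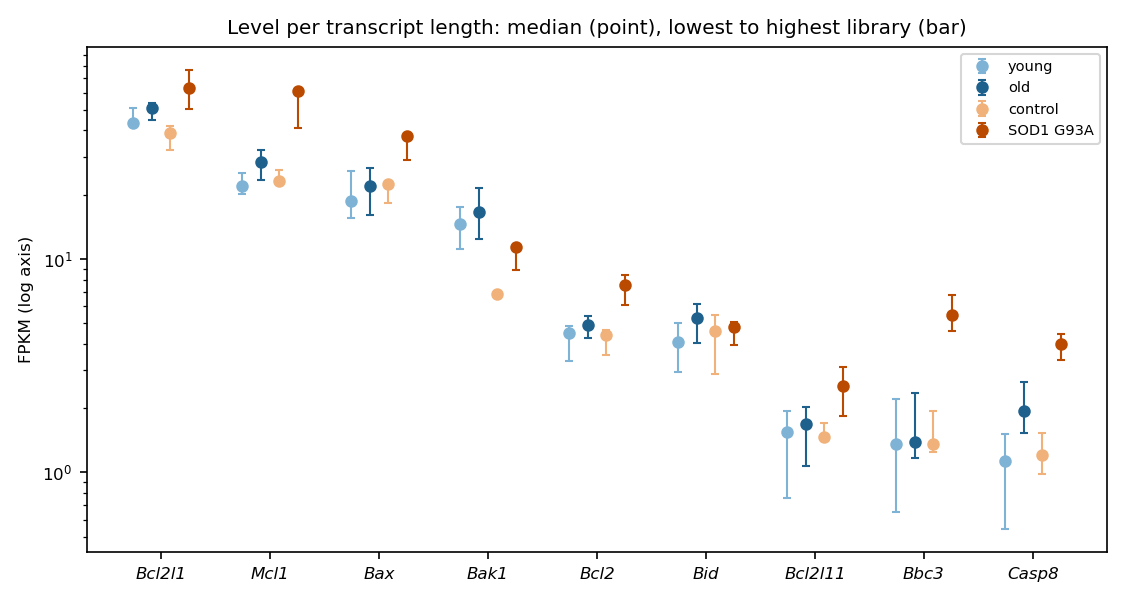
FPKM of the members on a log axis, as the group median (point) and the lowest to highest library (bar), for 8 young, 8 old, 3 control and 3 SOD1 G93A libraries. Genes are ordered by their level in young mice, from Bcl2l1 at a median of 43.4 to Casp8 at 1.14. Bbc3 and Casp8 in SOD1 G93A mice lie above the range of their controls.

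The FPKM ratio of Bax to Bcl2, an effector to a guard, is given as a description without a test. The mean was 4.61 ± 1.19 for the 8 young and 4.60 ± 0.68 for the 8 old mice, and 5.11 ± 1.19 for the 3 control and 4.77 ± 0.27 for the 3 SOD1 G93A mice (± SD). The ranges over mice overlapped in both experiments, and in ALS the CPM of Bax and Bcl2 had log2 fold changes of 0.64 and 0.74. The FPKM ratio of Mcl1 to Bcl2l1 averaged 0.501 ± 0.031 over the 8 young and 0.565 ± 0.049 over the 8 old mice (± SD), with overlapping ranges. It ran from 0.593 to 0.689 in control and from 0.804 to 0.971 in SOD1 G93A mice, without overlap.

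The other genes of the pathway were described through 10 lists that hold 62 genes with the members, of which 53 are not members. In aging 42 of these 53 were tested, 11 were higher and 4 lower, or 26.2% higher against 13.5% of all genes tested. In ALS 47 were tested, 19 were higher and 4 lower, or 40.4% higher against 18.4% of all genes. With the members included, 1 of 51 tested genes in aging was called higher beyond a log2 fold change of 1, against 2.18% of all tested genes. In ALS 15 of 56 were, against 8.5%, and no gene was called lower beyond 1 in either. Some of these passed the filter on low counts mainly through the higher group, so they could hardly have been called lower. They were Bcl2a1b in both comparisons, and Bcl2a1a, Bcl2a1d, Tnfrsf10b and Zbp1 in ALS. The median log2 fold change of the tested genes among the 53 was 0.10 in aging and 0.22 in ALS, below that of the members in each.

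Upstream of the members lies the death receptor list, which holds Casp8 itself. Of its 10 genes, 5 of 8 tested (62.5%) were higher in aging and 6 of 9 (66.7%) in ALS, with none lower. Of all tested genes, 13.5% were higher in aging and 18.4% in ALS. Tnfrsf1a, the main TNF receptor, had the smallest adjusted p of the list in both, running from 18.2 to 22.2 CPM in young and from 27 to 47 CPM in old mice without overlap. Its log2 fold change was 0.96 ± 0.09 in aging (adjusted p = 1.91e-08, edgeR) and 2.08 ± 0.16 in ALS (adjusted p = 0.000124), and the difference of 1.10 was itself called (adjusted p = 7.56e-05). Fas, a death receptor that recruits caspase-8, rose by 0.84 ± 0.23 in aging and 1.87 ± 0.31 in ALS (adjusted p = 0.00802 and 0.00294). Tnfrsf10b, the mouse TRAIL receptor, was too low to be tested in aging and rose by 1.81 ± 0.40 in ALS (adjusted p = 0.00923). With 7 to 11 counts in control libraries, Tnfrsf10b passed the filter mainly through the SOD1 G93A libraries. Ripk1, a kinase at the branch between survival and death signals, gave 0.18 ± 0.14 in aging (adjusted p = 0.357) and rose by 1.17 ± 0.23 in ALS (adjusted p = 0.0065). The other calls of the list were Cflar and Fadd. Cflar rose by 0.28 ± 0.08 in aging and 0.97 ± 0.21 in ALS (adjusted p = 0.00971 and 0.00905, edgeR). Fadd rose by 0.38 ± 0.11 in aging (adjusted p = 0.0138) and was not called in ALS (0.55 ± 0.23, adjusted p = 0.0963). Fasl, the ligand of Fas, had at most 2 counts in any young or old library.

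The guard and BH3-only lists hold further genes. The guard Bcl2l2 stood at 138 to 161 CPM in control and at 119 to 132 CPM in SOD1 G93A mice, lower without overlap. Its log2 fold change was -0.24 ± 0.09 in ALS (adjusted p = 0.0712, edgeR) and -0.06 ± 0.05 in aging (adjusted p = 0.377), so it passed in neither. The near-identical Bcl2a1 genes, guards of blood and microglial cells whose reads the counting may split between copies, were almost absent from young and control mice. Where tested, they passed the filter on low counts mainly through old or SOD1 G93A mice, so they could hardly have been called lower. Bcl2a1b was at 0 to 1.70 CPM in young and at 1.70 to 7.86 CPM in old mice, a log2 fold change of 3.28 ± 0.47 (adjusted p = 1.19e-05, edgeR), and rose by 4.89 ± 0.73 in ALS (adjusted p = 0.00183). In ALS Bcl2a1a rose by 2.98 ± 0.81 (adjusted p = 0.0207). Bcl2a1d had 0 counts in every control library and 38 to 52 in the SOD1 G93A libraries, at least 13.7-fold higher with 3 counts in the shallowest control library as the floor. Bcl2l10 had 0 counts in every library, which allows up to 0.582 CPM in the shallowest aging library and 0.285 CPM in the shallowest control, counting error only. Of the BH3-only genes outside the members, Bmf rose in ALS by 1.29 ± 0.29 (adjusted p = 0.0104), with 0.15 ± 0.13 in aging (adjusted p = 0.434).

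Downstream of the members the lists are short, and their counts stand beside 13.5% of all tested genes higher and 12.9% lower in aging, and 18.4% higher and 15.5% lower in ALS. In the list of the apoptosome and caspases, 2 of 7 (28.6%) were higher in aging, and in ALS 3 (42.9%) were higher and 1 lower. Casp9, the initiator that the apoptosome activates, had the smallest adjusted p in aging (0.29 ± 0.07, adjusted p = 0.00205, edgeR) and gave 0.09 ± 0.10 in ALS (adjusted p = 0.534). Among 7 IAP proteins and their antagonists, which block or free caspases, 1 of 6 tested (16.7%) was higher and 2 lower in aging, and 2 of 7 (28.6%) were higher in ALS, so the aging share was near that of all genes. Birc3 rose by 1.33 ± 0.28 (adjusted p = 0.00827) and Birc5, which is also a gene of dividing cells, by 1.31 ± 0.32 (adjusted p = 0.014) in ALS, while Birc6 had the smallest adjusted p in aging (-0.19 ± 0.06, adjusted p = 0.0147). The executioner targets, proteins cut by caspases or acting just after them, had no call in aging by edgeR, with the smallest adjusted p at 0.517 for Dffa. In ALS Dffa, the inhibitor of the caspase-activated DNase, was the 1 gene of 5 called, running from 104 to 120 CPM in control and from 52.8 to 68.3 CPM in SOD1 G93A mice (log2 fold change -0.91 ± 0.11, adjusted p = 0.000736).

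Of the transcription factors known to act on member genes, Trp53, which activates Bbc3 and Bax, rose by 0.35 ± 0.07 in aging (adjusted p = 0.00127, edgeR) and by 0.69 ± 0.13 in ALS (adjusted p = 0.0049). It was the 1 gene of 5 tested (20%) called in aging, against 13.5% of all genes higher. In ALS 3 of 5 (60%) were called higher, Trp53, Jun and Ddit3, against 18.4% of all genes. Ddit3, the endoplasmic reticulum stress factor CHOP, had the smallest adjusted p in ALS (0.98 ± 0.17, adjusted p = 0.00418). The share of all tested genes called lower was 12.9% in aging and 15.5% in ALS. Of 5 mitochondrial partners, 2 (40%) were higher and 2 lower in aging, and 0 higher and 2 lower in ALS. Opa1, which shapes the inner membrane, had the smallest adjusted p of them in both, at -0.20 ± 0.04 in aging (adjusted p = 0.00119) and -0.50 ± 0.13 in ALS (adjusted p = 0.0172). Of the 3 necroptosis genes, Ripk3 and Mlkl were too low to test in either comparison, and Zbp1 rose from 0 to 4 counts in control libraries to 11 to 39 in SOD1 G93A libraries (log2 fold change 3.61 ± 0.80, adjusted p = 0.00925). Zbp1 passed the filter on low counts through the SOD1 G93A libraries, so it could hardly have been called lower.

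**Figure D4:**
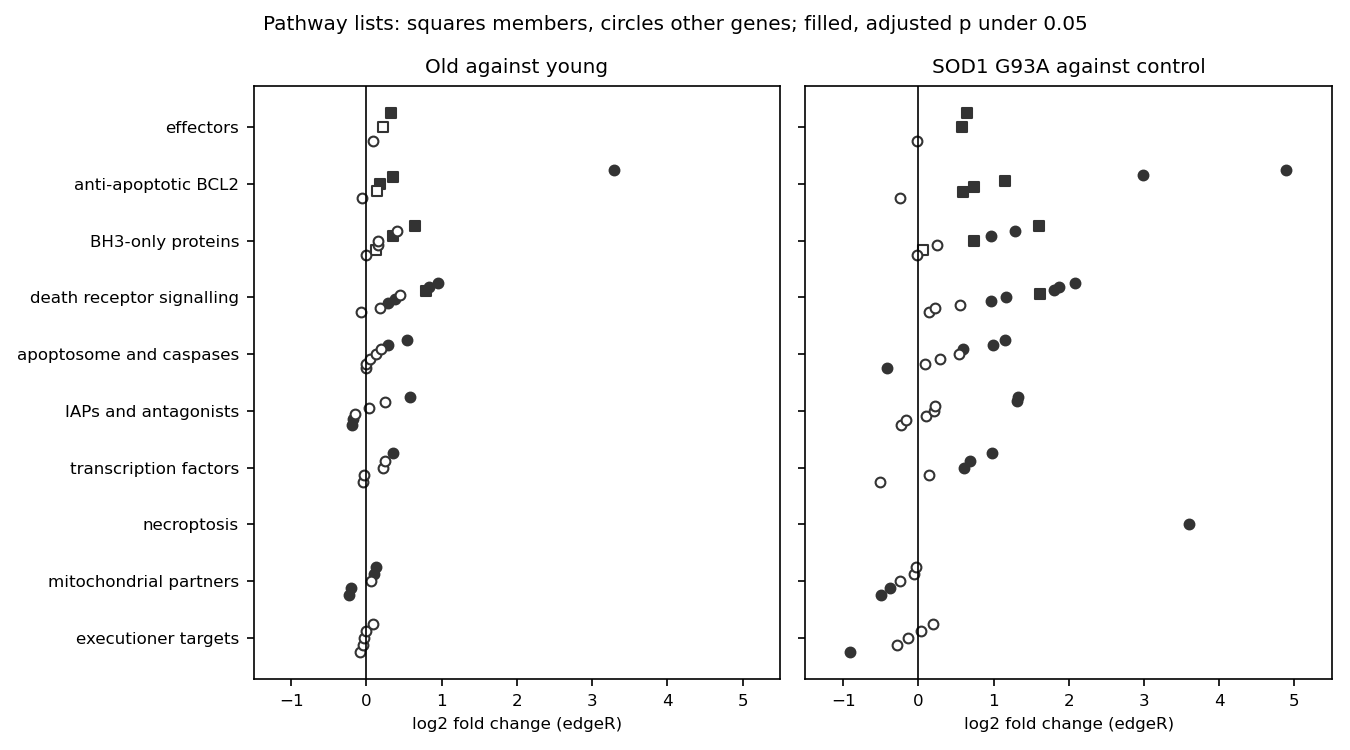
Log2 fold change (edgeR, x axis) of each tested gene of the 10 pathway lists (rows) in aging (left) and ALS (right), with squares for members, circles for other genes and filled symbols for an adjusted p under 0.05. Bcl2a1d is left out in ALS because its controls had 0 counts. The filled symbols beyond 1 number 1 in aging, Bcl2a1b at 3.28, and 14 in ALS. Of all tested genes, 2.18% in aging and 8.5% in ALS were called higher beyond 1.

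Markers of some cell types moved with the groups. The summed CPM of 8 microglia and macrophage markers ran from 329 to 364 in young, from 508 to 835 in old, from 334 to 405 in control and from 1235 to 2188 in SOD1 G93A mice, with 7 of 8 markers called higher in aging and 6 of 8 in ALS. For 5 astrocyte markers the sums were 2920 to 3512, 3340 to 4555, 2604 to 3361 and 8242 to 14296 CPM in the same order, with 3 higher and 1 lower in aging and 5 higher in ALS. The 6 neuron markers summed to 4934 to 5013 CPM in control and 2345 to 3800 CPM in SOD1 G93A mice, with 5 called lower, and the 6 motor neuron markers to 234 to 266 and 114 to 126 CPM, with 4 called lower. In aging both sums overlapped, at 4497 to 4935 CPM in young and 4141 to 5426 CPM in old mice for neurons, with 1 marker higher and 0 lower, and at 204 to 256 and 185 to 244 CPM for motor neurons, with 0 higher and 1 lower. Of the 5 oligodendrocyte and 4 endothelial markers, 0 were called in ALS by edgeR, with 1 of each list at an unadjusted p under 0.05, and DESeq2 called 1 oligodendrocyte marker and 0 endothelial markers. In aging 1 oligodendrocyte marker was higher and 2 lower, and 1 endothelial marker lower. In SOD1 G93A library d4437, which was the lowest of its group for 7 of the 9 members, the microglia and astrocyte sums were also the lowest and the neuron sum the highest. In whole tissue, more cells of a type and more RNA per cell cannot be told apart, and the part of these cell types in the members' changes was not tested. T cell, B cell and neutrophil marker sums were at most 2.56 CPM in every library, and 0 of these markers had enough counts to be tested. The T cell sum ran from 0.194 to 0.707 CPM in young and from 0.729 to 2.56 CPM in old mice. It ran from 0.154 to 0.854 CPM in control and from 1.10 to 1.34 CPM in SOD1 G93A mice. Neither pair of groups overlapped, but these sums rest on few counts. Schwann cell markers, a sign of nerve root, reached 58.5 CPM in the old library d149032 and 109 CPM in the SOD1 G93A library d4435, against at most 11.7 CPM elsewhere. Meningeal fibroblast markers were also highest in d4435, at 44.1 CPM against at most 25.8 CPM in any other library, and the part of neither list was tested.

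As a check of the labels, mouse Sod1 was at 156 to 168 CPM in control and at 296 to 335 CPM in SOD1 G93A libraries (log2 fold change 0.95 ± 0.09, adjusted p = 0.000241, edgeR). The transgene is human, so only its reads that align to the mouse gene are counted here. Total counts per library were 5078092 to 9358055 in young, 5664869 to 9145600 in old, 10693060 to 13219797 in control and 9675610 to 11872431 in SOD1 G93A mice, so the counting error of low genes such as Bbc3 and Casp8 was smaller per library in the ALS experiment. With 3 mice per group, the standard errors of their log2 fold changes were nonetheless larger there, 0.25 against 0.21 for Bbc3 and 0.24 against 0.18 for Casp8.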

How the data were processed

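Whole spinal cord RNA-seq of 22 mice in 4 groups was analysed from 2 deposited tables. The authors aligned reads with STAR and estimated abundance with RSEM on the Ensembl annotation of mm10, and deposited RSEM expected counts, already whole numbers. The second table holds log2(FPKM + 1), a log2 scale computed by the authors. Columns name a group and a library but no replicate number. No 2 libraries of a group were identical, and the chi-square per degree of freedom between their counts was at least 2.52.

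For each comparison alone, genes were kept with filterByExpr (minimum count 10, minimum total 15) and libraries scaled by TMM. The main test was edgeR's quasi-likelihood test (edgeR 4.0.16, R 4.3.3) with p-values adjusted by Benjamini-Hochberg across every tested gene. The call was an adjusted p under 0.05, and the study's threshold of a log2 fold change beyond 1 is given beside it. Differences between the comparisons were a contrast in 1 fit of all 22 libraries. Standard errors come from the fit that gave each change, and intervals are normal 95% intervals from them. With 3 mice per group such intervals are narrower than the test implies. The floor was 3 counts, and folds against a group at or under it are lower bounds. Alternatives were DESeq2 1.42.0, RLE factors, other filters, limma 3.58.1 on log2(FPKM + 1), 1 fit of all libraries and leaving out each library. On simulated data with the aging and the ALS design, 78% and 33% of genes given a log2 change of 0.5 were recovered among 13647 and 14386 genes, and 95.5% in both at 1.5. Of the calls, 1.27% and 2.94% at 0.5, and 5.45% and 7.73% at 1.5, fell on unchanged genes. Only a small random set of genes was changed, a much smaller share than was called in the data. The adjustment is stricter in that setting, so these rates do not give the power of the tests reported here. Positions and overlaps are from GENCODE M21, which holds 21919 of the 21995 genes, and promoters from RefSeq on GRCm38.p6, in which 9 members matched. Floors cover counting error only.

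The members, lists and tests were chosen with earlier results of these data known, so no list is independent support. Genes named are the 9 members, Sod1, every list gene beyond a log2 fold change of 1, the gene with the smallest adjusted p of each list and comparison, and the 3 genes most correlated over the aging libraries with each member called in both comparisons. Some genes that this rule names are not reported here. Fasl, Cflar, Fadd, Bcl2l2, Bcl2l10, Bok, Jun, Ripk3 and Mlkl and the genes that overlap members were named outside the rule, once their values had been seen. Sex is given per group and was not a covariate.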

Additional observations from a re-analysis of the deposited data

Results flagged for a closer look

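Bbc3 in one old mouse, library d149036, stood at 4.02 CPM, apart from the next old mouse at 2.98 CPM, a gap of 0.598 of the range of the group. This was 1 of 18 combinations of a member and an aging group that were examined for such a gap, and chance alone sets apart about 1 in 20 groups. With that library left out, the aging change of Bbc3 was 0.57 on the log2 scale with an adjusted p of 0.0509 (edgeR).

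For 3 members the change in ALS exceeded the change in aging by the test of the difference, by 0.57 on the log2 scale for Bcl2, 0.77 for Mcl1 and 0.93 for Bbc3 (edgeR, adjusted p = 0.00572, 0.000121 and 0.0422). The Bbc3 call was lost in several of the fits that left out 1 library. All 3 SOD1 G93A mice lay above all controls for each of these genes, as they did for 25.7% of all tested genes. In aging 3 of 8 old mice for Bcl2, 8 of 8 for Mcl1 and 2 of 8 for Bbc3 lay above all young mice. All 8 did so for 3.66% of all tested genes. Full separation is easier with 3 mice per group than with 8, so these counts do not compare the changes.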

How the results depend on the processing

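No paired analysis was possible because the columns of the tables carry no replicate numbers. Over RLE factors, DESeq2, both other filters, limma on log2(FPKM + 1) and 1 fit of all 22 libraries, members called higher numbered 4 to 6 in aging and 7 to 8 in ALS, and lower 0 in both. Pathway genes moved further. With limma on log2(FPKM + 1), 11 were higher and 2 lower in aging, and 2 were lower in ALS, where 1 fit of all libraries gave 7 lower. With a log2 fold change beyond 1 required, 0 members and 1 pathway gene were higher and 0 pathway genes lower in aging, against 3, 15 and 0 in ALS. Of all tested genes, 2.18% in aging and 8.5% in ALS were higher at that threshold. With each library left out in turn, members higher ranged from 5 to 7 in aging and from 5 to 8 in ALS, with 5 without d4443, pathway genes higher from 14 to 21 and from 19 to 28, pathway genes lower from 3 to 5 and from 1 to 9, and members with a larger change in ALS from 2 to 7, with 0 for members lower and members with a larger change in aging. Pathway genes lower in ALS numbered 9 without d4437, 2 without d4438 or d4435 and 1 without d4441 or d4443. Without these libraries fewer samples entered, and otherwise the cause was not tested.

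Of single members, Bid in ALS ranged from -0.14 to 0.28 with each library left out, and changed sign without d4444 (-0.14) and d4443 (-0.02). Bak1 in aging was lost only with limma on log2(FPKM + 1), at 0.23 (adjusted p = 0.173), where the implied length of Bak1 varied 1.88-fold over the libraries. Counts per kilobase of all annotated exons in place of FPKM lowered the Bax to Bcl2 ratio to 3.22 in young, 3.30 in old, 3.65 in control and 3.36 in SOD1 G93A mice. Depth limits Bbc3 and Casp8 in the aging libraries, where they had 7 to 28 and 12 to 42 counts.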

Other observations

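The genes whose log2 CPM followed a member most closely over the 16 aging libraries are given as a description, by Pearson's r, in points that share the young and old groups and so share any difference between them. For Mcl1 they included the ribosomal protein gene Rps16 (r = 0.952) and Arhgdib, a gene best known from blood cells (0.944), and over the 6 ALS libraries the same pairs gave 0.952 and 0.968. For Bcl2l1 they were Cebpa (0.924), a myeloid transcription factor, Glis3 (0.895) and Mcm7 (0.894), with 0.891, 0.863 and 0.696 in ALS. For Bak1 they were Lmo2, Naxe and Rnf126 (0.935, 0.919 and 0.912), with 0.918, 0.735 and 0.243 in ALS. For Casp8 they were Tgfbr3, Pygl and Serinc3 (0.896, 0.879 and 0.869), with 0.537, 0.617 and 0.926 in ALS. For Bbc3, the member with the fewest counts, they were Usp43, Trap1 and Pcdhb2 (0.840, 0.816 and 0.801), with 0.977, 0.301 and -0.355 in ALS, so that 1 of the 3 pairs had the opposite sign there.

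The FPKM ratio of Bbc3 to Mcl1, a BH3-only gene to a guard, ran from 0.0564 to 0.0742 in control and from 0.0893 to 0.112 in SOD1 G93A mice, without overlap. The FPKM ratio of Bcl2l11 to Mcl1 ran the other way, from 0.0559 to 0.0767 in control and from 0.0416 to 0.0508 in SOD1 G93A mice. In young and old mice both ratios overlapped. These ratios were chosen after the values of the members were known and were not tested.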
